A study of Peromyscus maniculatus with 6 samples.

Results

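The genes of macroautophagy and of the lysosome were followed in primary fibroblasts of the deer mouse (Peromyscus maniculatus) treated with tunicamycin, which blocks N-glycosylation and so puts the endoplasmic reticulum (ER) under stress. The set held 37 gene symbols, and a gene entered when its name in the deposited count table equalled a listed symbol. The table named 28 of the 37, among 24281 genes in all. Rb1cc1, Becn1, Uvrag, Atg5, Atg7, Gabarapl2, Nbr1, Tfe3 and Ctsd had no row under these names and are not analysed here. All 28 named genes passed the filter on low counts, which left 13503 genes for testing. They were grouped by role as 12 genes of initiation and membrane supply, 10 of the conjugation systems, 1 cargo receptor and 5 of the lysosome and its control.

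Ear punches of 3 deer mice of the BW stock, described as 4 weeks old, were digested, and the outgrowing fibroblasts gave 1 control and 1 treated culture per animal (BW35770, BW35772 and BW35773). Cells stood for 24 h at 300000 per well and were then exposed to tunicamycin for 5 h before lysis. Its concentration is printed on the labels as 5 mg per mL, a figure not checked here, and they name no vehicle for the control wells. The 6 libraries held 37852385 to 49352126 counts on genes.

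Fibroblast markers were present in every library, with Col1a2 at 1792 to 2979 CPM (each gene's share of a library's counts, as counts in 1e6, after scaling by the trimmed mean of M values) and Vim at 7494 to 9763 CPM. Some varied more between libraries, with Thy1 at 58.0 to 827 CPM and Col3a1 at 420 to 1482 CPM. Of the 6 leukocyte and macrophage markers with a row, which summed to 70.0 to 181 CPM, Cd68 made up most, Cd14 reached 5.56 CPM, and Ptprc, Csf1r, Mrc1 and Adgre1 stayed below 0.5 CPM. The 4 keratinocyte markers summed to 2.65 to 23.0 CPM, nearly all of it Krt14, with Krt5 at up to 0.0668 CPM. The 4 endothelial markers summed to 0.873 to 4.68 CPM, mostly Pecam1, with Cdh5 at up to 0.0574 CPM. Cartilage markers were not absent, apart from Matn1 at up to 0.0445 CPM. The 5 of them summed to 1834 and 2044 CPM in the libraries of BW35770 and to between 6016 and 8688 CPM in the other 4 libraries. Of these, Col2a1 alone ran from 743 to 6260 CPM, while the fibroblast collagen Col1a1 ran from 1107 to 3570 CPM. As a check of the treatment, the stress genes Hspa5, Atf4, Ddit3, Trib3 and Chac1 were all called higher, with log2 fold changes from 1.47 (Hspa5) to 4.66 (Chac1).

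Autophagy encloses cytoplasm in a double membrane, the autophagosome, and delivers it to the lysosome. The ULK1 kinase complex and a lipid kinase complex around PIK3C3 start the membrane, ATG9A and the ATG2 proteins supply lipid, and WIPI proteins mark the site. A pair of ubiquitin-like systems then works on it. ATG12 is joined to ATG5 and binds ATG16L1, and that complex directs the attachment of LC3 and GABARAP proteins to the membrane lipid phosphatidylethanolamine, where they hold cargo receptors such as p62 (Sqstm1). In other mammalian cells ER stress is known to raise transcription of several of these genes through ATF4 and CHOP, the factors encoded by Atf4 and Ddit3.

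Atg12 rose after 5 h of tunicamycin, and no other of the 28 genes passed the test. The call was 1 of 28 higher and 0 of 28 lower, where over all 13503 tested genes 1.78% were called higher and 0.792% lower (edgeR quasi-likelihood test, Benjamini-Hochberg adjusted p under 0.05, n = 3 animals). A single call among 28 is near that background. At an unadjusted p under 0.05 there were 2 higher (Atg12 and Atg2b) and 3 lower (Map1lc3b, Gabarap and Ulk2), where 8.88% of all tested genes were higher and 6.64% lower, so these counts too are near the background. DESeq2 called 1 higher and 1 lower, the latter being Map1lc3b (adjusted p = 0.00736), where it called 5.67% and 3.36% of the genes to which it gave an adjusted p. Limma-voom called 1 higher and 0 lower, where it called 1.61% and 0.77% of all tested genes. The median log2 fold change was 0.0068 over the 28 genes and -0.0103 over all tested genes, with a range for the 28 from -0.048 to 0.097 when single libraries were left out. Of the 28, 14 had a positive value, beside 6555 of all 13503.

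The intervals are from the fit without the animal as a term, so they include the spread between animals. Each holds for 1 gene alone, and together they are no joint bound on all 28. The 95% interval of the change lay within 2-fold in either direction for all 28 genes, and within 1.5-fold for 13 of them. Over all tested genes these counts were 8612 and 4146. For 23 of the 28 the interval included 0.

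**Figure D1:**
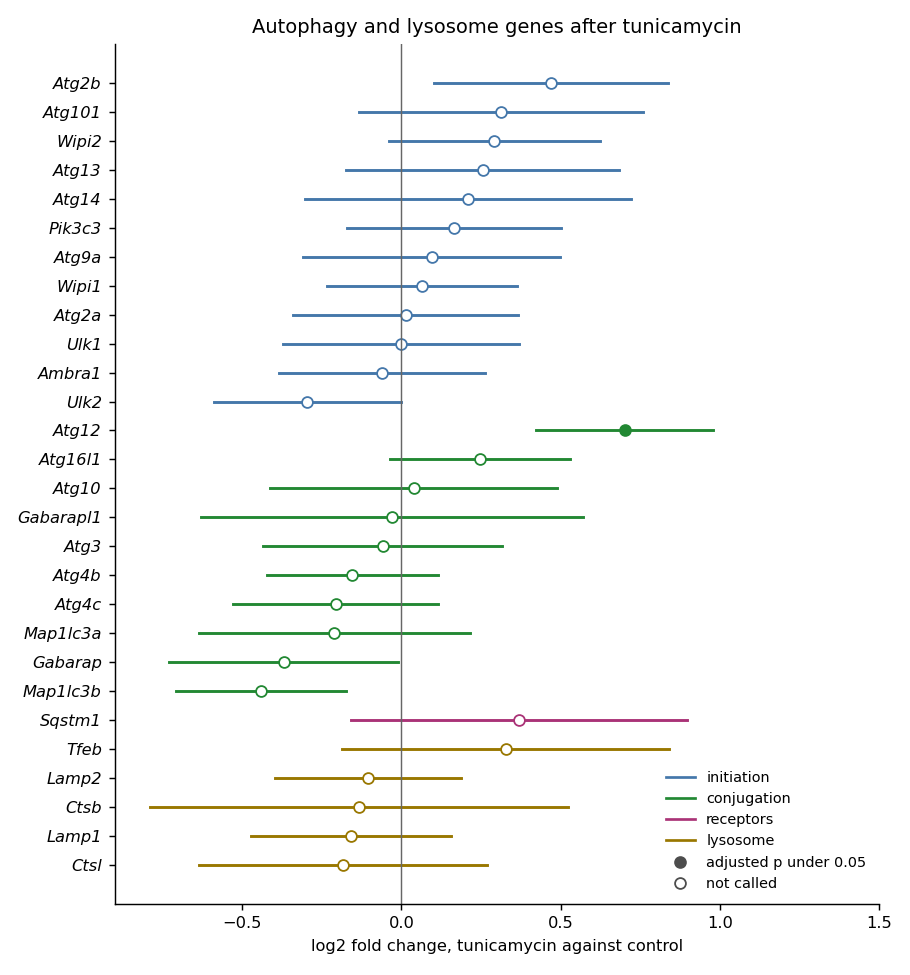
Log2 fold change of each of the 28 genes (x axis, tunicamycin against control, edgeR) with its 95% interval as a line, in colours by role. The filled point is Atg12 at 0.70, whose interval runs from 0.42 to 0.98, and every open point was not called.

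Levels per kilobase of annotated exon placed lysosomal and GABARAP transcripts at the top. In controls the cysteine protease cathepsin B (Ctsb) stood at 917 ± 306 CPM per kb (SD, n = 3) and Lamp1, a main glycoprotein of the lysosomal membrane, at 659.7 ± 32.4 CPM per kb. Ctsb lay above Lamp1 in each of the 6 libraries, from 679 against 638 CPM per kb in the control of BW35773 to 1262 against 644 in that of BW35770. Gabarap followed at 476 ± 34.8 CPM per kb, then cathepsin L (Ctsl) at 351 ± 74.9 and Sqstm1 at 303 ± 76.1, whose levels overlapped.

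Map1lc3b, which encodes LC3B, stood at 203 ± 13.8 CPM per kb in controls. Map1lc3a, for LC3A, was at 209 ± 29.6 on the same scale, but its annotated exons sum to only 201 bases, so its level per length rests on a short gene model. Lamp2 followed at 109.6 ± 6.99 and Gabarapl1 at 91.2 ± 27.2 CPM per kb.

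All 12 initiation genes lay below these, from Atg101 at 68.1 ± 13.3 down to Atg2b at 4.68 ± 0.179 CPM per kb in controls. The lowest of the 28 was Atg10, the E2-like enzyme that joins ATG12 to ATG5, at 4.06 ± 0.268 CPM per kb. The transcription factor Tfeb, which drives lysosomal genes, was at 9.03 ± 0.511 CPM per kb.

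**Figure D2:**
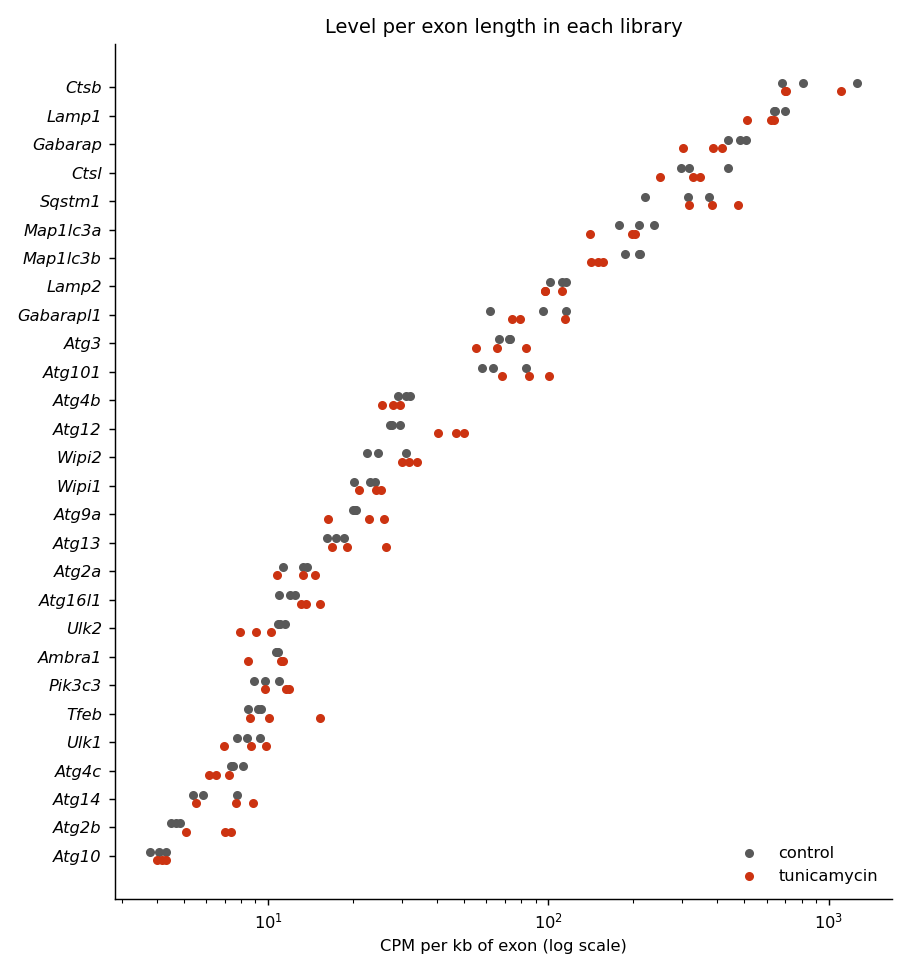
Level of each gene in every library in CPM per kb of exon (x axis, log scale), with 3 control and 3 tunicamycin points per gene, ordered by the control mean. Ctsb is at the top (917 in controls) and Atg10 at the bottom (4.06). The red and grey points do not overlap for Atg12, Atg2b, Atg16l1, Map1lc3b, Gabarap, Ulk2 and Atg4c.

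Among the 12 genes of initiation and membrane supply none was called higher or lower in edgeR without or with the animal as a term, and 1 higher and 1 lower had an unadjusted p under 0.05, near the shares given for all tested genes. Their median log2 fold change was 0.13. It was 0.23 without the treated library of BW35773 and 0.058 without that of BW35770. The gene with the smallest p was Atg2b (ENSPEMG00000015152, scaffold KI615331.1, bases 14393949 to 14464682, + strand, 42 exon intervals), one of 2 ATG2 genes whose proteins carry lipid from the ER to the growing membrane. Its control levels were 49.6, 51.1 and 47.4 CPM in BW35770, BW35772 and BW35773, and its treated levels were 73.8, 77.7 and 53.5 CPM. All 3 treated libraries lay above all controls, with the treated library of BW35773 only just above.

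The change on the log2 scale was 0.47 ± 0.16 (SE, edgeR adjusted p = 0.199). Without the treated library of BW35773 it was 0.64 and was called (edgeR adjusted p = 0.0296), as it was in the blocked fit without that animal (0.0182). Without any other single library it was not called (edgeR adjusted p from 0.299 to 0.512). Nor was it in the blocked fits without animal BW35770 (0.684) or BW35772 (0.261). Atg2a, the other ATG2 gene, had a log2 fold change of 0.01 ± 0.15.

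Atg101, a subunit of the ULK1 complex and the initiation gene with the highest level per length, was at 94.8, 72.2 and 66.0 CPM in the controls. With tunicamycin it was at 97.2, 77.7 and 115 CPM in the same order of animals. It was barely different in BW35770 and BW35772 and higher by 0.80 on the log2 scale in BW35773. The log2 fold change was 0.31 ± 0.19 (edgeR adjusted p = 0.516).

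Wipi2, which recruits ATG16L1 to the site of the new membrane, went from 132, 105 and 96.5 CPM in controls to 145, 128 and 136 CPM. The log2 fold change was 0.29 ± 0.14 (edgeR adjusted p = 0.39), with higher values in 3 of 3 pairs and overlapping groups. Ulk2, a kinase related to ULK1, was the one initiation gene lower in 3 of 3 pairs, from 58.1, 61.2 and 59.0 CPM to 48.3, 54.6 and 42.4 CPM. Its log2 fold change was -0.29 ± 0.13 (edgeR adjusted p = 0.322).

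The other 8 initiation genes had log2 fold changes from -0.06 (Ambra1, a scaffold of the PIK3C3 complex) to 0.25 (Atg13, a ULK1 complex subunit). The control mean of Ulk1 itself was 41.2 ± 3.93 CPM and its treated mean 41.2 ± 7.06 CPM, with an interval of the log2 fold change from -0.37 to 0.37. Pik3c3, the lipid kinase, and Atg14, its autophagy-specific partner, had 0.17 ± 0.14 and 0.21 ± 0.22. Atg9a, the membrane-spanning protein of the lipid-supplying vesicles, had 0.10 ± 0.17, and Wipi1 0.06 ± 0.13.

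Of the 10 conjugation genes 1 was called higher and 0 lower, with a median log2 fold change of -0.11. That median was 0.010 without the treated library of BW35772, -0.21 without the control of BW35773 and -0.036 with the dependence on exon length taken out of every library. The gene called was Atg12 (ENSPEMG00000017004, scaffold KI615409.1, bases 402089 to 411436, + strand, 4 exon intervals), the ubiquitin-like protein that ends up joined to ATG5. Its controls held 73.3, 74.3 and 79.1 CPM and its treated libraries 108, 126 and 134 CPM in BW35770, BW35772 and BW35773. The lowest treated library lay well above the highest control, and the differences within pairs were 0.56, 0.76 and 0.76 on the log2 scale.

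On the log2 scale Atg12 thus rose by 0.70 ± 0.12 (SE, with an edgeR adjusted p of 0.0296), which is 1.62-fold with an interval from 1.34 to 1.97. The table shows no other gene within its bounds on the scaffold. With the animal as a term (the replicate block) the adjusted p was 0.0164.

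In fits without the block the call for Atg12 was lost when a control was left out, with edgeR adjusted p = 0.126 without that of BW35770, 0.156 without that of BW35772 and 0.139 without that of BW35773, and when the treated library of BW35772 was (0.0639). With the block it was lost without animal BW35770 (adjusted p = 0.181). Its log2 fold change stayed between 0.65 and 0.78 in all of these fits, those without the other libraries or animals included.

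Atg16l1, the partner of the ATG12 conjugate, also had treated libraries above all controls, at 49.5, 42.5 and 44.1 CPM against 40.4, 35.4 and 38.7 CPM. The gap between the lowest treated and the highest control library was small, and the log2 fold change of 0.25 ± 0.12 was not called (edgeR adjusted p = 0.391). Atg10, which joins ATG12 to ATG5, had 0.04 ± 0.19. Atg3, the E2-like enzyme that attaches LC3 to lipid, had -0.06 ± 0.16, and the proteases Atg4b and Atg4c, which trim LC3 and GABARAP proteins, had -0.15 ± 0.12 and -0.21 ± 0.14.

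**Figure D3:**
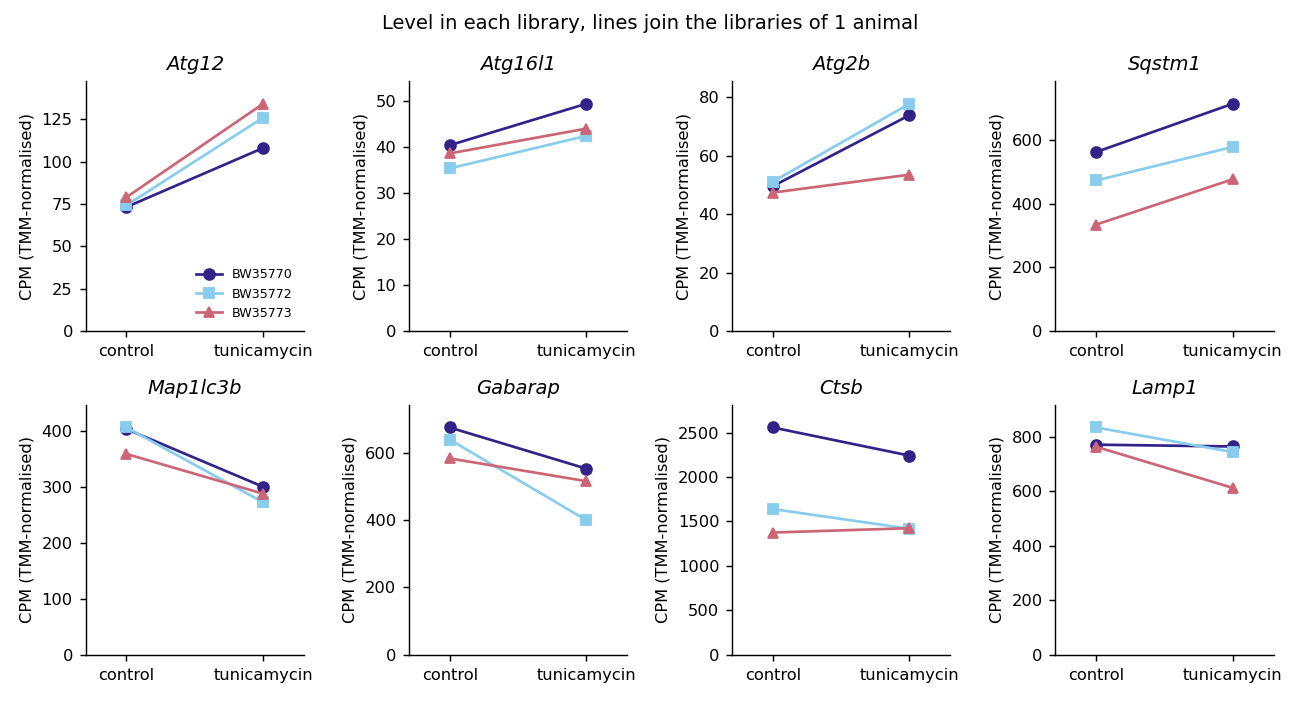
TMM-normalised CPM (y axis, from 0) of 8 genes in the control and tunicamycin library of each animal, with a line joining the 2 libraries of an animal. Atg12 climbs from between 73.3 and 79.1 to between 108 and 134 CPM in all 3 animals, while Ctsb is set apart by animal BW35770 (2557 and 2241 CPM).

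The LC3 and GABARAP transcripts, the second ubiquitin-like family, had values on the other side of 0. Map1lc3b (ENSPEMG00000009840, scaffold KI615763.1, bases 618719 to 628707, - strand) was at 403, 406 and 358 CPM in controls and 300.0, 272 and 288 CPM with tunicamycin. All treated libraries lay below all controls. The log2 fold change was -0.44 ± 0.11 (SE), an interval of 0.613 to 0.886-fold, and was not called in edgeR (adjusted p = 0.109, and 0.0745 with the replicate block). DESeq2 called it lower (adjusted p = 0.00736), as did the blocked edgeR fit without animal BW35773 (0.0398). The blocked fits without animal BW35770 (0.568) or BW35772 (0.255) did not. Without any single library, unblocked, it was not called either (edgeR adjusted p from 0.103 to 0.428).

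Gabarap, the member of this family with the highest level per length, was at 675, 639 and 583 CPM in controls and 552, 399.8 and 515 CPM after treatment. Groups did not overlap, with the lowest value in the treated library of BW35772. The log2 fold change was -0.37 ± 0.15 (edgeR adjusted p = 0.308).

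Gabarapl1 differed more between animals than with treatment. Its controls held 209, 173 and 112 CPM and its treated libraries 207, 143 and 134 CPM in BW35770, BW35772 and BW35773, for a log2 fold change of -0.03 ± 0.26. Map1lc3a had -0.21 ± 0.18, lower in 2 pairs and higher in BW35773, and its sign turned to 0.09 with the length dependence taken out. The 4 transcripts together, summed after their values were seen, went from 1334 to 1100.3 CPM in BW35770, from 1259.6 to 844 CPM in BW35772 and from 1089 to 976 CPM in BW35773.

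Sqstm1, whose protein p62 binds ubiquitin-tagged cargo and LC3, is the one cargo receptor of the set with a row (ENSPEMG00000019274, scaffold KI615635.1, bases 786798 to 797822, + strand). Its controls held 562, 473 and 334 CPM and its treated libraries 713, 578 and 476 CPM in BW35770, BW35772 and BW35773. Each animal's treated library was above its own control, by 0.34, 0.29 and 0.51 on the log2 scale, while the groups overlapped because the animals started from different levels.

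The log2 fold change was 0.37 ± 0.23 (edgeR adjusted p = 0.518, and 0.108 with the replicate block), with an interval from 0.896 to 1.86-fold. Once the dependence on exon length was taken out of every library, an alternative chosen after seeing the data, the blocked fit called it higher (adjusted p = 0.024). The same fit called Map1lc3b lower (0.0167), and 2 members were then higher and 1 lower, where 5.37% and 5.57% of all tested genes were.

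None of the 5 lysosomal genes was called in edgeR, and none had an unadjusted p under 0.05. Neither DESeq2 nor limma-voom called one. Tfeb, which turns on many lysosomal and autophagy genes when it enters the nucleus, had the smallest p of the group. It was at 21.1, 18.9 and 20.4 CPM in controls and 22.5, 19.2 and 34.1 CPM with tunicamycin. The first 2 animals hardly moved and BW35773 was higher. The estimate was 0.33 ± 0.22 on the log2 scale and was not called (edgeR adjusted p = 0.564).

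Ctsb was the most abundant of the set, at 2557, 1639.8 and 1376 CPM in controls and 2241, 1418 and 1425 CPM with tunicamycin. Both libraries of BW35770 lay above the other 4, among which BW35772 and BW35773 overlapped. In bulk RNA a smaller share of some cell type and less RNA per cell cannot be told apart. The log2 fold change was -0.13 ± 0.28, with an interval from 0.579 to 1.44-fold.

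Ctsl was at 632, 459 and 432 CPM in controls and 502, 363 and 477 CPM with tunicamycin, a log2 fold change of -0.18 ± 0.19. Lamp1 went from 771, 834 and 764 CPM to 765, 744 and 613 CPM and Lamp2, the other main lysosomal membrane glycoprotein, from 747, 727 and 660.3 CPM to 631, 723 and 629 CPM. Both were lower in 3 of 3 pairs with overlapping groups, with log2 fold changes of -0.16 ± 0.13 and -0.11 ± 0.13. Their intervals reached 0.72-fold (Lamp1) and 0.759-fold (Lamp2) at the low end.

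The pairs did not all behave alike. Treated libraries were higher for 15, 16 and 17 of the 28 genes in BW35770, BW35772 and BW35773, but within the roles the animals parted. Of the 12 initiation genes 10, 11 and 6 were higher, and of the 10 conjugation genes 3, 3 and 7. Atg3, Map1lc3a, Gabarapl1, Ctsl, Ctsb and Atg4b were lower in BW35770 and BW35772 and higher in BW35773, and Ulk1, Ambra1, Atg9a and Pik3c3 were the reverse. Some of these log2 differences were small. They were -0.0064 for Pik3c3 and 0.023 for Atg4b in BW35773, and -0.015 for Gabarapl1 in BW35770. With 1 library per animal and condition, whether the response differs between animals cannot be tested.

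In all, 11 of the 28 were higher in 3 of 3 pairs and 6 lower in 3 of 3, beside 20.5% and 21.9% of all tested genes. Groups did not overlap for 3 genes on the higher side (Atg12, Atg2b and Atg16l1) and 4 on the lower side (Map1lc3b, Gabarap, Ulk2 and Atg4c), beside 12.3% and 9.98% of all genes.

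**Figure D4:**
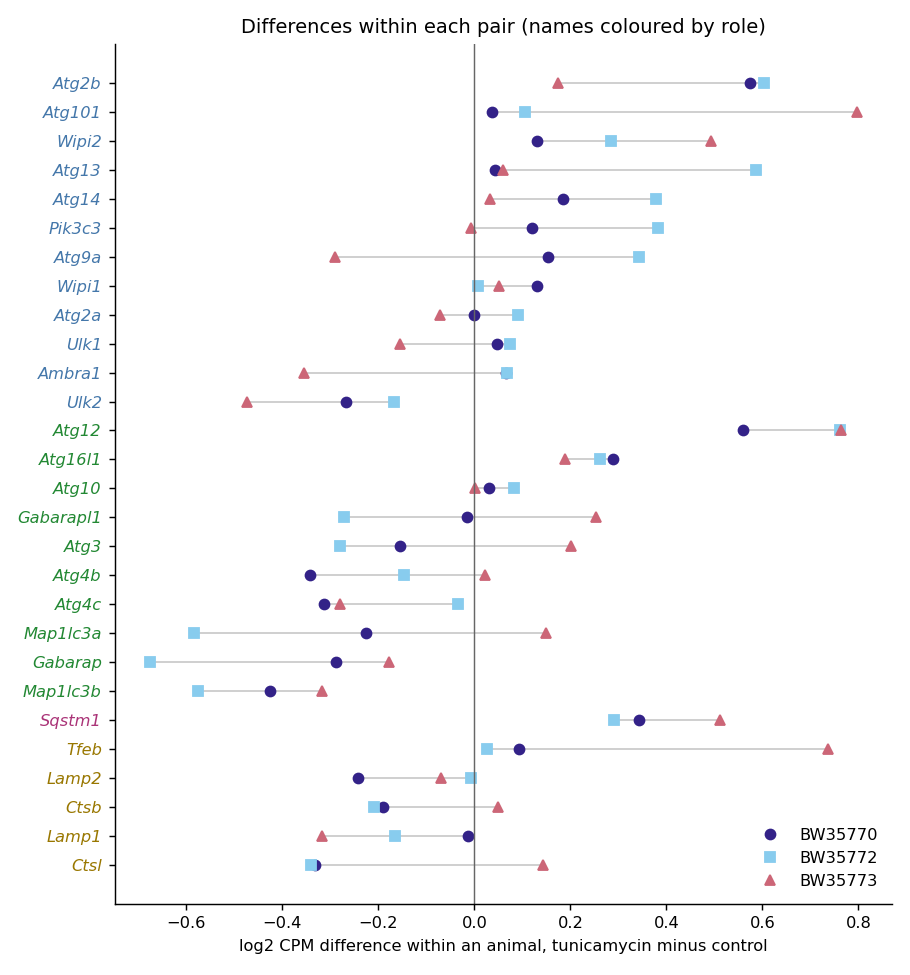
Difference in log2 CPM between the tunicamycin and the control library of each animal (x axis) for the 28 genes, names coloured by role, with 1 symbol per animal. Atg12 (0.56 to 0.76) lies right of 0 and Map1lc3b (-0.58 to -0.32) left of 0 in all 3 animals, while Tfeb and Atg101 are carried by BW35773 (0.74 and 0.80).

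Of the 28 genes, 3 picked after their values were seen had the widest range between animals. Averaged over both libraries of an animal, Ctsb was at 2399 CPM in BW35770 and at 1529 and 1400.3 CPM in BW35772 and BW35773, a 1.71-fold range. Gabarapl1 spanned 1.69-fold and Sqstm1 1.57-fold, both falling from BW35770 through BW35772 to BW35773. An F test of the animal terms, added after seeing the data, called 0 of 28 genes, beside 3.53% of all tested genes (edgeR adjusted p = 0.0548 for Ctsb and 0.0984 for both Gabarapl1 and Sqstm1). Without the filter on low counts it called 2, Ctsb (0.014) and Gabarapl1 (0.0453), where it called 4.28% of all genes.

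Cd68, a lysosomal membrane protein also used as a macrophage marker, was highest in the same animal, at 175 and 153 CPM in BW35770 and 68.6 to 122 CPM in the other libraries. Cd14, another macrophage marker, was also highest there, at 5.56 and 3.78 CPM against 0.873 to 3.04 CPM, as was the endothelial sum, at 4.68 and 4.01 CPM against 0.873 to 1.53 CPM. Adgre1 was at 0.331 and 0.467 CPM in that animal and 0 to 0.324 CPM in the others. Ptprc was at 0 in both libraries of BW35770 and at most 0.025 CPM elsewhere. Csf1r was at most 0.0445 CPM in that animal and 0.125 CPM elsewhere, and Mrc1 peaked in another animal, at 0.115 CPM. The sum of the cartilage markers was lowest in that animal, as given above. The sum of the fibroblast markers was lowest there too, at 13694 and 13671 CPM against 15536 to 17762 CPM. The part of these cell types in the levels of Ctsb, Gabarapl1 and Sqstm1 was not tested.

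Beyond the 28 genes, 163 other symbols of the pathway were drawn up in 7 lists, of which the table named 145 and 144 were tested. Of these, 0 were higher and 1 was lower in edgeR, with 1 and 4 in the fit with the replicate block and 3 and 6 in DESeq2. In limma-voom the counts were 0 and 2. At an unadjusted edgeR p under 0.05 they were 8 and 10 of 144, where 8.88% and 6.64% of all tested genes were, so they are near or below the background. With the block 3.07% of all tested genes were higher and 2.4% lower, and without it 1.78% and 0.792%. The shares were 1.61% and 0.77% in limma-voom, and in DESeq2 5.67% and 3.36% of the genes given an adjusted p.

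Among 9 ER-phagy genes, which link the ER to the autophagosome, 1 fell and 0 rose, and the median log2 fold change was -0.14. The gene that fell was Retreg3 (FAM134C), a reticulon-like receptor in ER tubules (ENSPEMG00000013772). Its controls held 24.4, 22.1 and 21.0 CPM and its treated libraries 8.06, 10.6 and 7.75 CPM. All treated libraries lay far below the lowest control, and the log2 fold change was -1.35 ± 0.18 (edgeR adjusted p = 0.0123).

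The call for Retreg3 was lost in fits without a control (edgeR adjusted p = 0.0562 without that of BW35770, 0.0877 without BW35772 and 0.0722 without BW35773), without the treated library of BW35770 (0.0538), and in the blocked fit without animal BW35770 (0.107). Its log2 fold change stayed between -1.24 and -1.52 in the fits that left out any 1 library or animal. Its relatives Retreg1 and Retreg2 had log2 fold changes of -0.14 ± 0.13 and -0.15 ± 0.17 and were not called. Ccpg1, an ER-phagy receptor known in other mammals as a gene of the unfolded protein response, had -0.0017 ± 0.12, and Sec62, a translocon protein that acts in recovery from ER stress, -0.19 ± 0.16.

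In the list of other core and fusion genes, 25 were tested, 0 were called in edgeR without the block, and 1 rose and 1 fell with it. Rubcn, which encodes Rubicon, a brake on autophagosome maturation, went from 42.9, 41.5 and 39.6 CPM to 60.6, 75.6 and 56.1 CPM. The difference was 0.63 ± 0.14 on the log2 scale (edgeR adjusted p = 0.0677 unblocked and 0.0396 with the replicate block). Vamp8, a SNARE protein of autophagosome fusion, went from 129, 120.4 and 126 CPM to 68.6, 56.4 and 96.8 CPM. That is -0.76 ± 0.19 on the log2 scale, with an edgeR adjusted p of 0.106 that became 0.0323 under the block. In both genes the groups did not overlap. The blocked call for Rubcn was lost without animal BW35770 (edgeR adjusted p = 0.302) or BW35772 (0.0862).

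Of 14 proton pump subunits, which acidify the lysosome, 0 were called in edgeR without the block, as scaled and filtered here, and 1 fell with it, at a median of -0.12. That gene was Atp6v0e, a small membrane subunit, at 126, 125 and 108 CPM in controls and 60.0, 63.1 and 85.0 CPM with tunicamycin. Groups did not overlap, and the difference was -0.79 ± 0.16 on the log2 scale (edgeR adjusted p = 0.0514 unblocked and 0.0347 with the block). It was called without the block under other settings, at an adjusted p of 0.0453 with upper-quartile factors, 0.0454 with library totals, 0.0381 with no filter, 0.0404 with the filter at 1 CPM, 0.046 in limma-voom and 0.000897 in DESeq2.

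In the list of nutrient and TFEB control, 24 genes were tested, 0 were called in edgeR without the block and 1 fell with it. Lamtor5, a subunit of the Ragulator complex that holds mTORC1 at the lysosome, went from 45.8, 35.4 and 42.2 CPM to 19.8, 21.1 and 29.9 CPM. This was -0.80 ± 0.19 on the log2 scale (edgeR adjusted p = 0.0887 unblocked and 0.0348 with the block), and all treated libraries lay below all controls.

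Vamp8, Atp6v0e and Lamtor5 lost their blocked calls without animal BW35770 (edgeR adjusted p = 0.31, 0.36 and 0.403). DESeq2, which has no block here, called them and Rubcn. All 3 have short annotated exons, at 752, 813 and 842 bases. Over all tested genes the median log2 fold change was -0.14 for the 2376 with up to 1000 exon bases and 0.18 for the 236 with over 8000. With that dependence on length taken out, their log2 fold changes were -0.62, -0.65 and -0.67, and the edgeR fit without the block called all 3 lower (adjusted p = 0.0214, 0.0252 and 0.0435), as it called Rubcn higher (0.0334). That fit called 2.21% of all tested genes higher and 1.43% lower.

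Of 39 other lysosomal hydrolases 0 rose and 0 fell in either edgeR fit, with a median log2 fold change of -0.12. The smallest p-values were those of Acp2, lysosomal acid phosphatase (-0.31 ± 0.12, edgeR adjusted p = 0.268), and Tpp1, a tripeptidyl peptidase (-0.30 ± 0.14, 0.371). Of the 39, 15 were lower and 1 was higher in 3 of 3 pairs, where 21.9% and 20.5% of all tested genes were. For 36 of the 39 the 95% interval lay within 2-fold. Among 20 other genes of the lysosomal membrane and of enzyme sorting none was called in either edgeR fit. Laptm4b and Laptm4a, membrane proteins of late endosomes and lysosomes, had -0.44 ± 0.15 (edgeR adjusted p = 0.217) and -0.28 ± 0.15 (0.418).

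Of 13 other cargo receptors none was called in either edgeR fit. Fundc1, a receptor on mitochondria, stood at -0.41 ± 0.13 on the log2 scale (edgeR adjusted p = 0.191), and Stbd1, a receptor for glycogen, had 0.51 ± 0.21 (0.3). Fundc1 was lower in 3 of 3 pairs and Stbd1 higher in 3 of 3.

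**Figure D5:**
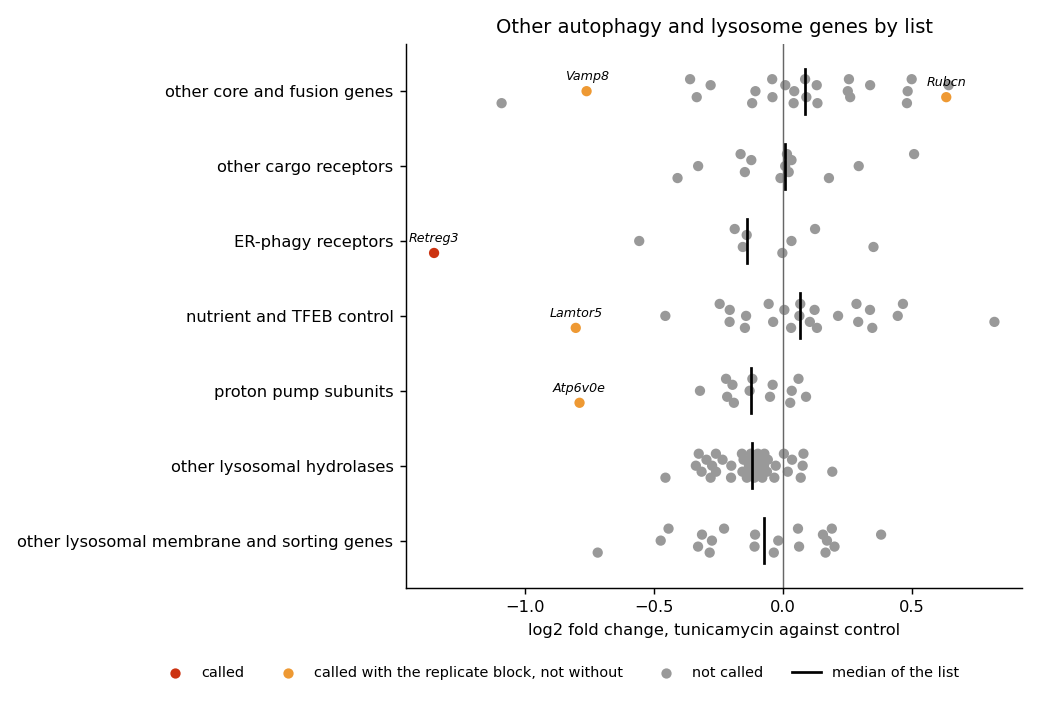
Log2 fold change (x axis) of 144 other autophagy and lysosome genes, 1 point per gene, in 7 lists, with a bar at each list's median. Colours show 2 edgeR fits: Retreg3 at -1.35 was called without the replicate block, and Vamp8, Rubcn, Lamtor5 and Atp6v0e were called with the block and not without it.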

How the data were processed

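The authors deposited raw counts for each gene as whole numbers, in a table with Ensembl gene IDs, names, exon bounds and 1 column per RNA-seq library (6 in all). STAR 2.6.1, SAMtools 1.6, featureCounts and Subread are listed in the submitters' processing notes. No label names the genome build, the annotation release or how multi-mapping reads were handled, and coordinates are printed as the table has them. The table's title says that counting was strand-specific. It leaves 6252 genes unnamed, which took 22.1 to 26.1% of counts, so genes of the set without a named row may be among them. Libraries were not copies of each other (chi-square per degree of freedom at least 34.0 between any pair).

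Counts were tested in edgeR 4.0.16 under R 4.3.3: filterByExpr (minimum count 10, total 15), TMM scaling, and the two-sided quasi-likelihood test of 3 tunicamycin against 3 control libraries over all 13503 genes, with Benjamini-Hochberg adjustment and a threshold of 0.05. SE is the log2 fold change divided by the square root of F, intervals are 95% from the same fit, and differences within pairs use log2 CPM with a prior count of 2. Levels per length divide CPM by the table's exon bases.

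Titles name the animal, so equal numbers pair the libraries. Deviations from group means correlated at 0.66, 0.41 and 0.22 within the 3 pairs. Alternatives were the animal as a block, other scalings and filters, DESeq2 1.42.0, limma-voom (limma 3.58.1), each library or animal left out, and, added later, removal of the trend with exon length (lowess span 0.4). The members, lists and tests were chosen with earlier results of these data known. Genes given per library were those called with or without the block and, in each role, the smallest p and the highest level per length. From each other list the called genes, up to 4, or else the 2 smallest p-values were named. Other members, and Retreg1, Retreg2, Ccpg1, Sec62 and Cd68, were named after their values were seen. The edgeR fits without and with the block were run on simulated counts that held no animal effect, to check their fold change estimates. The other fits were not tested in this way. P-values of fits without the block measure the spread between cultures of 3 animals. Those of the treatment with the block measure the spread left after differences between animals are taken out.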

Additional observations from a re-analysis of the deposited data

How the results depend on the processing

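Of the 28 genes 1 was higher and 0 lower under each other scaling, each other filter, limma-voom and the replicate block. DESeq2 added 1 lower gene (Map1lc3b), and the length correction with the block gave 2 higher and 1 lower. Leaving out 1 library, or 1 animal under the block, gave 0 to 2 higher and 0 to 1 lower. Among the 144 other pathway genes, 0 higher and 1 lower became 3 and 6 in DESeq2, 1 and 4 with the block or with the length correction, and 1 and 10 with both. Upper-quartile factors, library totals, limma-voom, no filter and the filter at 1 CPM in 3 libraries each gave 2 lower. Without single libraries or animals the counts were 0 to 4 higher and 0 to 12 lower (1 and 5 without the treated library of BW35773). Over all tested genes, 241 higher and 107 lower became 676 and 401 in DESeq2, 415 and 324 with the replicate block, 725 and 752 with block and length correction, and 193 lower with the length correction alone. Without single libraries or animals they were 46 to 806 and 15 to 826. In blocked fits they were 74 and 37 without BW35770, 497 and 451 without BW35772, and 806 and 826 without BW35773. The highest counts came without animal BW35773 or, unblocked, without its treated library (313 and 251), and the cause was not tested. Scaling moved the median of all genes by less than 0.1, to between -0.015 and 0.0503. No named gene reversed a called direction in any of these fits.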
